A study of Ovis aries with 16 samples.

Results

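Ketamine is an anesthetic and an antagonist of glutamate receptors of the NMDA (N-methyl-D-aspartate) class. It was given intravenously to fetal sheep before a hypoxic stimulus, and its effect on gene expression in the hypothalamus was measured 24 h after the onset of that stimulus. Of the 16 fetuses in the series, the 9 that underwent hypoxia are compared here. The hypoxia control group (HC, n = 5) received saline and the hypoxia plus ketamine group (HK, n = 4) received ketamine. All 9 were Suffolk late-gestation fetuses with indwelling catheters, and in all of them 30 min of hypoxia was produced by lowering the oxygen in the gas breathed by the ewe, followed by 23.5 h of normoxia. The ewes of the remaining 7 fetuses stayed normoxic, and these fetuses received saline (NC, n = 3) or ketamine (NK, n = 4). Every ewe had been given ampicillin around surgery, and most fetuses were twins whose littermates the labels do not name, so relatedness was not modelled. The tissue was the whole hypothalamic block, in which a lower signal can reflect fewer cells of a type or less RNA in each cell, and these cannot be told apart.

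Hypoxia followed by recovery can set off an innate immune response in the brain. Toll-like receptors and their co-receptor CD14 recognise microbial and damaged-cell products, nuclear factor kappa B carries the signal to the nucleus, and cytokines such as TNF, IL1B and IL6, the prostaglandin enzyme PTGS2 and the complement system act downstream. The comparison of HK with HC asks whether ketamine altered the transcripts present after hypoxia.

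Each gene was read by a DNA probe of 60 bases on the array. The probes for 5 of the genes that the results turn on are shown because they fix which transcript was measured, and for IL18 and EDNRB the second probe is shown as well. Capitals mark the bases that both probes of a gene share.
IL13RA1, probe A_70_P002812: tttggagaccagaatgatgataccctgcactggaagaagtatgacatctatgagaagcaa
IL18, probe A_70_P050911: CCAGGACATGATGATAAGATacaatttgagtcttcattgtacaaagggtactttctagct
IL18, probe A_70_P050912: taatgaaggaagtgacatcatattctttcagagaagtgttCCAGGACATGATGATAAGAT
TLR2, probe A_70_P050916: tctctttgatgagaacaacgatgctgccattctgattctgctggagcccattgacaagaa
EDNRB, probe A_70_P041852: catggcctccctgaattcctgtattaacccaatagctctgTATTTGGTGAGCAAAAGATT
EDNRB, probe A_70_P041851: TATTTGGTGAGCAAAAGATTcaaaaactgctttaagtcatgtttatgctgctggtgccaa
CYGB, probe A_70_P027841: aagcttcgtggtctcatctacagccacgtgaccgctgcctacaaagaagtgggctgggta

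Values are log2 signals after subtraction of the 75th percentile of their own array, so a probe at 0 is brighter than most others. Of 15008 probes, 12249 were well above background on at least 3 of the 16 arrays and were tested. At an unadjusted p under 0.05 in limma, the threshold of the study's methods, the HK arrays exceeded the HC arrays at 398 probes and lay below them at 464. The total of 862 is 7.04% of the probes tested, 3.25% in the higher and 3.79% in the lower direction, where chance gives 5% in both directions together. Fitted to the HC and HK arrays alone, 522 of the 12249 probes were called, fewer than that 5%. No probe passed Benjamini-Hochberg adjustment in limma, the smallest adjusted p being 0.409. "Rose", "fell", "higher" and "lower" are used below for differences past the unadjusted threshold only, and none of them withstood adjustment. Differences were small where probes were higher (median 0.26 log2 units, with 12 probes over 1) and larger where they were lower (median -0.55, with 65 probes below -1). The share of probes well above background was 72% to 80.6% on the 9 arrays, and Pearson correlations across probes ranged from 0.9582 to 0.9843 between HC and HK arrays, from 0.9585 to 0.9735 among HC arrays and from 0.963 to 0.9842 among HK arrays. HC1, HC2, HK1 and HK2 were on slide 1 and the other 5 arrays on slide 2, so each slide held both groups. HC5 was the lowest HC array for TLR2, CD14, TNF, PTGS2 and NFKBIA, described below. Across probes HC5 correlated at 0.982 with HK3 and 0.9843 with HK4, both on its slide, against 0.9585 to 0.9704 with the other HC arrays. With HK1 and HK2 its correlations were 0.963 and 0.9652.

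Of 853 gene names represented by a tested probe, each by its brightest, 24 were higher (2.81%) and 44 were lower (5.16%) in HK, which together make 7.97% of the names. In 12 names (1.41%) the HK and HC arrays did not overlap. The share over all tested probes was similar, 1.55%, so a lack of overlap below only describes the arrays of that gene. The direction of all 68 called names was the same within slide 1 and within slide 2. They were selected for their difference on these same arrays, so this agreement is not independent support. The 15 genes with the smallest p in each direction, the called members of 23 gene lists and 5 further genes not past the threshold are described by their roles. The adjusted p in limma was 0.685 to 0.707 for the 46 called genes among them.

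**Figure D1:**
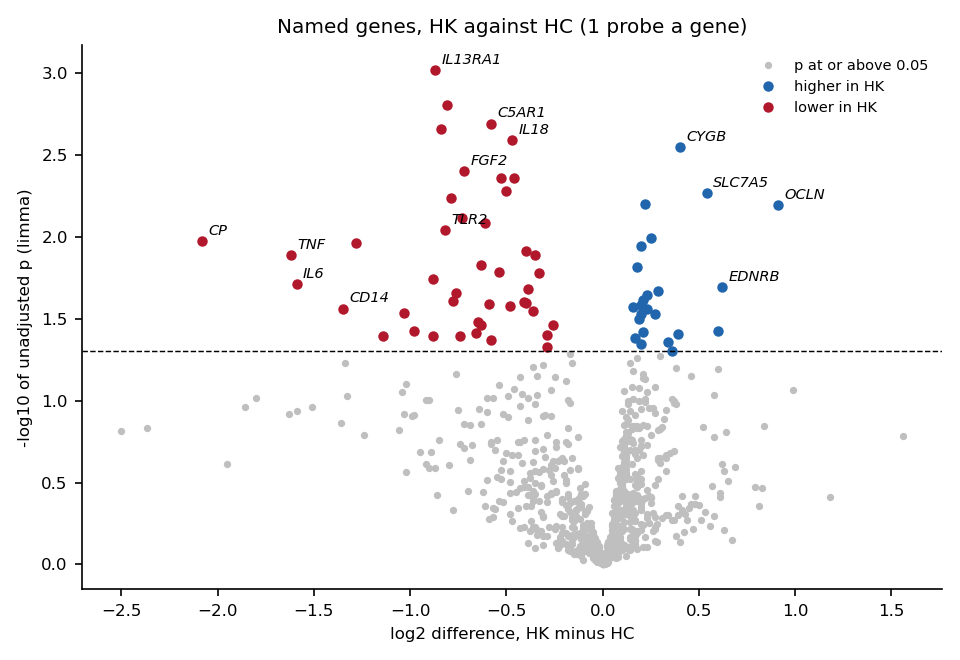
Log2 difference (HK minus HC, x axis) against the -log10 of limma's unadjusted p (y axis) for 853 gene names, 1 probe each. The dashed line is the threshold of 0.05. Among genes past the threshold and measured in both groups, TNF is the lowest at -1.62 and OCLN the highest at 0.91. Genes not past it can lie further out, such as CXCL10 at -1.95 and MMP13 at 0.99. CP and SERPINA1, at -2.08 and -1.28, were not well above background in HK and are plotted at their fitted values.

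Of 10 tested Toll-like receptors and adaptors 2 were lower in HK, TLR2 and CD14, and of 8 chemokine and chemoattractant receptor genes 1 was lower, C5AR1. C5AR1 (named C5aR on the array), the receptor for the complement fragment C5a that draws in neutrophils and macrophages, measured -0.57, 0.03, -0.33, -0.68 and -0.81 in HC1 to HC5 and -1.23, -0.81, -1.23 and -0.94 in HK1 to HK4. HC5 and HK2 were equal after rounding, but the groups did not overlap. C5AR1 fell by 0.58 ± 0.15 (SE) log2 units, or 1.5-fold. A second C5AR1 probe, which shared 59 of its 60 bases with the first, differed by -0.60.
TLR2, which recognises bacterial lipoproteins, measured -2.92, -2.75, -3.06, -2 and -3.63 in HC1 to HC5 and -3.77, -3.56, -4.23 and -3.21 in HK1 to HK4. The groups overlapped because HC5 was lower than HK2 and HK4. TLR2 fell by 0.82 ± 0.27 (SE), or 1.77-fold, and a second probe that shared no more than 7 consecutive bases with the first fell by 0.75 ± 0.30 (SE).
CD14 is the co-receptor that presents bacterial products to Toll-like receptors, and it measured -1.59, -0.18, -1.24, -1.01 and -3.46 in HC1 to HC5. In HK1 to HK4 it measured -1.68, -2.63, -3.61 and -3.45. HC5 again stood with the HK arrays. CD14 fell by 1.35 ± 0.55 (SE), but this call was lost without HC2, HC3, HC4, HK3 or HK4, where the difference ranged from -1.28 to -1.02.
FCGR1A, a macrophage receptor for immunoglobulin G, averaged -3.41 ± 1.02 (SD) in HC and -4.30 ± 0.15 (SD) in HK. Its call (-0.88 ± 0.39, SE) was lost without HC2, HC4, HK1, HK3 or HK4, with differences from -0.87 to -0.57.
The other 8 Toll-like receptors and adaptors were not called. TLR4, the receptor for lipopolysaccharide, differed by -0.49 ± 0.27 (SE). MYD88, the adaptor through which most of these receptors signal, differed by 0.07 ± 0.21 (SE), and TLR3 by 0.06 ± 0.21 (SE).

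Of 16 tested cytokines 3 were lower (IL18, TNF and IL6) and 13 were not called, and of 10 cytokine receptors 2 were lower (IL13RA1 and FAS) and 8 were not called. IL13RA1, a subunit of the receptors for interleukin 13 and interleukin 4, had the smallest p of all named genes. It measured -3.31, -3.94, -3.06, -3.94 and -3.63 in HC1 to HC5 and -4.35, -4.23, -4.72 and -4.49 in HK1 to HK4, so that the groups did not overlap. IL13RA1 fell by 0.87 ± 0.21 (SE), or 1.83-fold (limma, adjusted p = 0.685), but with normexp background correction the difference was -0.01 and was not called.
IL18, a cytokine released by inflammasome activation, measured -2.9, -2.6, -2.81, -2.46 and -2.7 in HC1 to HC5 and -3.26, -3.01, -3.18 and -3.19 in HK1 to HK4, and the groups did not overlap. IL18 fell by 0.47 ± 0.13 (SE), or 1.38-fold, and its second probe fell by 0.41 ± 0.17 (SE). With normexp the IL18 difference was 0.05. The spread was small in both groups, 0.17 (SD) in HC and 0.1 (SD) in HK.
TNF, a cytokine of the early inflammatory response, measured -3.97, -2.12, -3.8, -2.3 and -4.45 in HC1 to HC5 and -5.55, -3.17, -5.66 and -5.43 in HK1 to HK4. HK2 was higher than 3 of the HC arrays, and the probe was well above background on 3 of the 4 HK arrays. TNF fell by 1.62 ± 0.57 (SE), or 3.08-fold.
IL6, a cytokine that drives the acute phase response, measured -1.58, -4.68, -4.65, -1.83 and -4.53 in HC1 to HC5 and -5.38, -5.11, -4.85 and -4.85 in HK1 to HK4. The difference rested on HC1 and HC4, since the other 3 HC arrays were close to the highest HK arrays. The probe was well above background on 3 of the 4 HK arrays. IL6 fell by 1.59 ± 0.60 (SE), and without HC4 the difference was -1.19 and was not called.
FAS, a death receptor of the TNF receptor family, fell by 0.98 ± 0.43 (SE). That call was lost without HC2, HC4, HK1 or HK3, with differences from -0.93 to -0.70.
Among the cytokines not called, IL1B differed by -0.76 ± 0.38 (SE), IL1A by -0.60 ± 0.36 (SE) and IL10 by -0.05 ± 0.24 (SE).

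**Figure D2:**
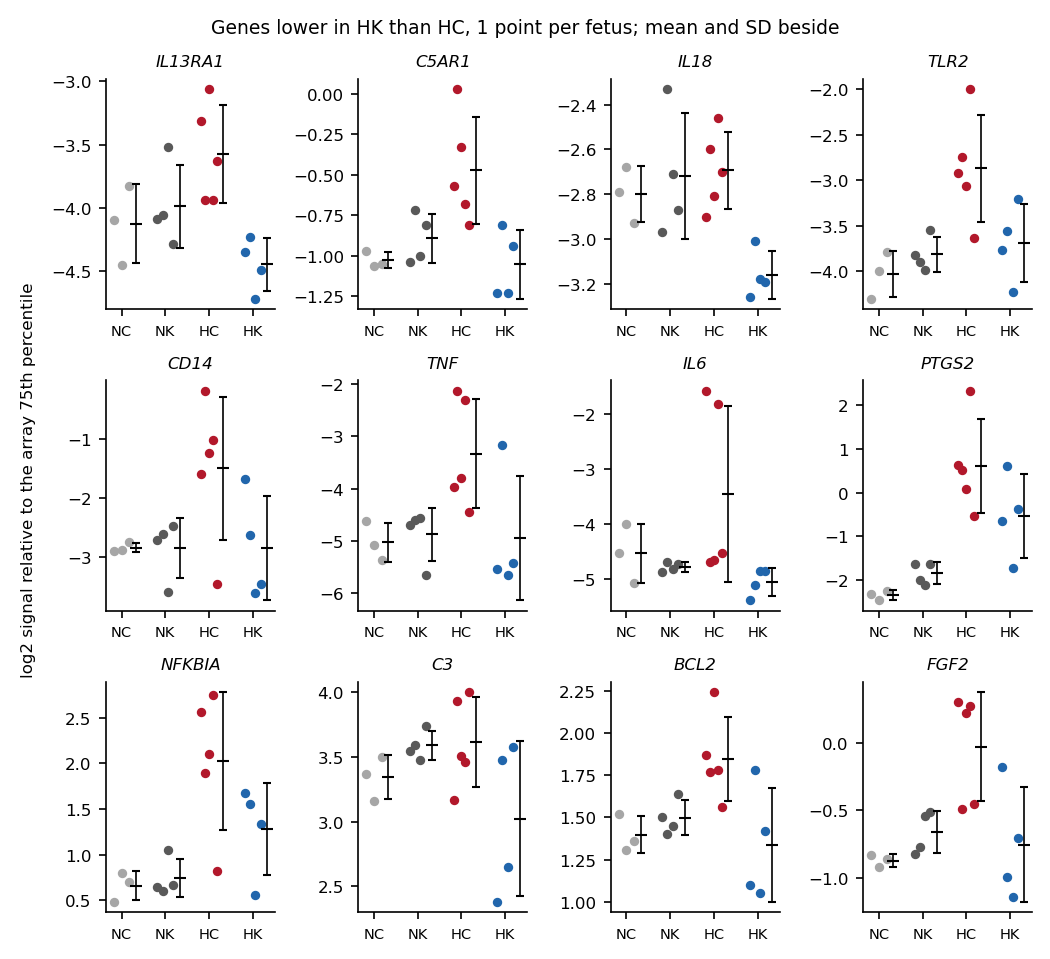
Log2 signal less the 75th percentile of each array (y axis) for 12 genes lower in HK than in HC, with 1 point per fetus in the groups NC, NK, HC and HK and the mean ± SD as a bar beside each group. The SD of IL6 is 1.60 in HC and 0.25 in HK, that of TNF is 1.05 and 1.19, and for IL13RA1 and IL18 the HK points lie below all HC points.

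Downstream of these receptors, 1 of 10 nuclear factor kappa B and MAP kinase genes, 1 of 9 prostaglandin genes and none of 9 interferon response genes were lower. NFKBIA, the inhibitor of nuclear factor kappa B that is itself induced by that factor, measured 2.56, 1.89, 2.1, 2.75 and 0.82 in HC1 to HC5 and 1.68, 1.55, 0.56 and 1.33 in HK1 to HK4. HC5 was below 3 of the 4 HK arrays. NFKBIA fell by 0.74 ± 0.33 (SE), or 1.67-fold, and was not called without HC1, HC3, HC4, HK3 or HK4 (-0.76 to -0.51).
PTGS2, the inducible enzyme of prostaglandin synthesis, measured 0.64, 0.53, 0.08, 2.34 and -0.54 in HC1 to HC5 and -0.65, 0.62, -1.72 and -0.37 in HK1 to HK4. HC4 was the highest and HK3 the lowest array. PTGS2 fell by 1.14 ± 0.50 (SE), and the call was lost without HC1, HC2, HC4, HK1, HK3 or HK4 (-1.19 to -0.70). None of the other 8 tested genes of prostaglandin synthesis and reception was called, and the constitutive enzyme PTGS1 differed by -0.05 ± 0.30 (SE).
CREM and ETS2, transcription factors responsive to cyclic AMP and to growth signals, fell by 0.79 ± 0.24 (SE) and 0.61 ± 0.20 (SE). CREM averaged -3.40 ± 0.61 (SD) in HC and -4.2 ± 0.18 (SD) in HK. The other 9 nuclear factor kappa B and MAP kinase genes were not called. FOS differed by -0.48 ± 0.42 (SE), JUN by -0.12 ± 0.13 (SE), MYC by -0.39 ± 0.22 (SE) and EGR1 by 0.22 ± 0.12 (SE).
Of the 9 tested interferon response genes none was called, although 8 were numerically below HC and the median difference was -1.06. On leaving out an array that median ranged from -0.40 without HC4 to -1.46 without HC1. CXCL10, a chemokine induced by interferon, ranged from -1.49 to 5.55 in HC, where the probe was saturated on 1 array, and from -3.97 to 3.6 in HK. The difference of -1.95 ± 1.60 (SE) takes the saturated spot at its value. MX2 differed by -1.59 ± 0.95 (SE), ISG15 by -1.36 ± 0.86 (SE) and IRF1 by -1.33 ± 0.74 (SE). PTX3, a pentraxin made by inflamed tissue, differed by -1.34 ± 0.65 (SE).
The 10 PCR genes of the study with a tested probe gave 5 lower, TLR2, TNF, CD14, PTGS2 and NFKBIA, none higher, and a median difference of -0.98, beside 0.02 over the 853 gene names. The study chose this list on these samples, so the count is not independent evidence of its direction.

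Of 6 tested complement and acute phase genes C5AR1 and C3 were lower and were measured in both groups. CP and SERPINA1 were also past the threshold, but only as bounds. C3, the central complement protein, averaged 3.61 ± 0.35 (SD) in HC and 3.02 ± 0.6 (SD) in HK, with individual HK arrays at 2.38, 3.48, 2.65 and 3.58. HK2 and HK4 lay among the HC arrays. C3 fell by 0.59 ± 0.24 (SE), a call lost without HC2, HC5, HK1 or HK3 (-0.51 to -0.38), and its second probe, sharing no more than 5 consecutive bases, fell by 0.54 ± 0.22 (SE).
CP, the copper-carrying ferroxidase ceruloplasmin, and SERPINA1, the protease inhibitor alpha-1-antitrypsin, were not well above background on any HK array. CP reached that level on 4 of the 5 HC arrays and was at least 1.65-fold lower in HK. SERPINA1 reached it on 3 of the 5 HC arrays and was at least 1.02-fold lower. For these bounds, each HK array entered at the dimmest signal that still counted as well above background, or at the probe's own signal where that was brighter. SERPINA1 was tested only because of its 3 HC arrays, since no array of another group reached that level, so it had to differ. Under the stricter filter neither gene was tested, and 2 of 4 members were called.

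Genes of cell survival, growth and matrix were among those lower in HK. BCL2, which blocks the mitochondrial path to cell death, measured 1.87, 1.77, 2.24, 1.78 and 1.56 in HC1 to HC5 and 1.1, 1.78, 1.05 and 1.42 in HK1 to HK4. Only HK2 reached into the HC range. BCL2 fell by 0.50 ± 0.15 (SE), or 1.42-fold. MCL1, a relative of BCL2 with a similar role, fell by 0.58 ± 0.26 (SE), but not without HC1, HC2, HC4, HK1, HK3 or HK4 (-0.60 to -0.34). In the apoptosis list 3 of 8 tested genes were lower, namely BCL2 and MCL1, which oppose cell death, and FAS, which promotes it. BAX, which promotes cell death, differed by 0.08 ± 0.16 (SE).
FGF2, a growth factor for neurons, glia and vessels, measured 0.3, -0.49, 0.22, 0.27 and -0.45 in HC1 to HC5 and -0.18, -0.99, -1.14 and -0.7 in HK1 to HK4. HK1 was the only HK array above 2 of the HC arrays. FGF2 fell by 0.72 ± 0.21 (SE), or 1.65-fold. GHR, the growth hormone receptor, fell by 0.63 ± 0.27 (SE), a call lost without HC1, HC3, HC5, HK1 or HK3 (-0.56 to -0.51). The remaining 23 of 25 tested growth axis genes were not called, and IGF1R differed by -0.09 ± 0.12 (SE).
Among 18 collagen and matrix genes 3 were lower and none was higher. COL4A3, a basement membrane collagen chain, fell by 0.84 ± 0.22 (SE), and TIMP3, an inhibitor of matrix metalloproteinases, fell by 0.46 ± 0.14 (SE). COL2A1, a fibrillar collagen chain, fell by 0.41 ± 0.16 (SE), but not without HC2, HC4, HC5, HK1 or HK2 (-0.36 to -0.33).
SLC2A3, the main glucose transporter of neurons, averaged 4.37 ± 0.49 (SD) in HC and 3.83 ± 0.19 (SD) in HK and fell by 0.54 ± 0.20 (SE). Without HK3 the difference was -0.47 and was not called. NOS2, the inducible nitric oxide synthase, fell by 0.63 ± 0.23 (SE), but not without HK1 or HK2 (-0.54 to -0.50), and its second probe differed by -0.28 ± 0.23 (SE). PPARG, a lipid-activated nuclear receptor, fell by 0.39 ± 0.15 (SE), but not without HC2, HC4, HK1 or HK2 (-0.35 to -0.29).
A translation initiation factor named EIF4GI on the array, the pseudouridine synthase DKC1 and the mitochondrial iron carrier SLC25A37 completed the 15 lower genes with the smallest p outside these groups. They fell by 0.81 ± 0.21, 0.73 ± 0.23 and 0.53 ± 0.16 (SE). In DKC1, HK2 was at 0.34 and the other HK arrays were at -1.1, -0.26 and -0.36.

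The higher genes formed a different set. OCLN, a transmembrane protein of tight junctions between endothelial or epithelial cells, measured -3.37, -3.42, -3.17, -4.67 and -3.03 in HC1 to HC5 and -2, -2.69, -2.82 and -2.98 in HK1 to HK4, and the groups did not overlap. HC4 was far below the other HC arrays. OCLN rose by 0.91 ± 0.28 (SE), or 1.88-fold.
Both tested endothelin receptors, which bind the vasoactive peptide endothelin, were higher. EDNRB (named ETBR on the array) measured -3.03, -3.11, -2.51, -2.83 and -2.31 in HC1 to HC5 and -2.85, -1.99, -1.82 and -1.91 in HK1 to HK4. HK1 lay within the HC range and the other HK arrays above it. EDNRB rose by 0.62 ± 0.23 (SE), or 1.53-fold, and its second probe rose by 0.50 ± 0.20 (SE), but the call was lost without HC2, HK2, HK3 or HK4 (0.51 to 0.57). EDNRA rose by 0.39 ± 0.17 (SE), but not without HC1, HC2, HC3, HC4, HK3 or HK4 (0.25 to 0.39). The ligand gene EDN1 differed by -0.43 ± 0.44 (SE).
Of 20 endothelial and tight junction genes these 3 were higher and none was lower. The endothelial markers PECAM1 and KDR differed by 0.19 ± 0.22 and -0.15 ± 0.18 (SE), and the summed signal of the list ranged from 2.13 to 2.8 in HC and from 2.17 to 2.47 in HK. The adhesion genes SELP and ICAM1 differed by -1.80 ± 1.01 and -0.87 ± 0.74 (SE).
CYGB, the oxygen-binding protein cytoglobin, measured -3.09, -2.84, -2.83, -2.87 and -2.77 in HC1 to HC5 and -2.28, -2.61, -2.25 and -2.77 in HK1 to HK4, where HK4 and HC5 were equal after rounding. CYGB rose by 0.40 ± 0.11 (SE), or 1.32-fold. Of 23 oxygen, antioxidant and metal genes 1 was higher, CYGB, and 3 were lower, CP, NOS2 and SLC2A3. HBB, the beta chain of hemoglobin and a marker of blood, differed by -0.24 ± 0.43 (SE), and HIF1A, a transcription factor subunit of the hypoxia response, by -0.14 ± 0.18 (SE).
SLC7A5 (named LAT1 on the array), a carrier of large neutral amino acids, measured -3.16, -3.35, -3.4, -3.98 and -3.04 in HC1 to HC5 and -2.71, -2.91, -3.16 and -2.61 in HK1 to HK4. The HC arrays were lower except that HC1 and HC5 were level with or above HK3. SLC7A5 rose by 0.54 ± 0.16 (SE), or 1.45-fold.
Among the 15 higher genes with the smallest p were 3 that encode mitochondrial proteins, a grouping made after their values were seen. The mitochondrial iron carrier SLC25A37, among the 15 lower genes, went the other way (-0.53 ± 0.16, SE). CHCHD3, a scaffold of the inner membrane, measured 2.63 to 2.68 in HC and 2.71 to 3.03 in HK and rose by 0.20 ± 0.07 (SE). SLC25A26, the carrier of S-adenosylmethionine, measured -2.13 to -2 in HC and -1.91 to -1.57 in HK and rose by 0.25 ± 0.08 (SE). Neither gene's groups overlapped. SLC25A11, the oxoglutarate carrier, rose by 0.20 ± 0.08 (SE), but not without HC1, HK1 or HK3 (0.16 to 0.18).
The remaining higher genes differed by 0.16 to 0.29. DTNBP1, the schizophrenia-associated protein dysbindin, rose by 0.22 ± 0.07 (SE) without overlap between the groups. PPCS, an enzyme of coenzyme A synthesis, and CTSD, a lysosomal protease, likewise had no overlap and rose by 0.23 ± 0.09 and 0.16 ± 0.07 (SE), but PPCS was not called without HC3 or HK1 (0.18 to 0.19), and CTSD was not called without HC2, HK1 or HK4 (0.12 to 0.15). CYP17A1, a steroid-synthesising enzyme, rose by 0.29 ± 0.11 (SE), but not without HK2 (0.26). CENP-B, a centromere protein, rose by 0.18 ± 0.07 (SE), but not without HK4 (0.16). The potassium-chloride cotransporter SLC12A4 rose by 0.23 ± 0.09, the ribosomal protein gene RPL13A by 0.27 ± 0.11 and LOC654331, whose role is not given, by 0.21 ± 0.08 (SE). They were not called without HC2, HK1 or HK4 (0.16 to 0.22), without HC2, HC4, HK3 or HK4 (0.21 to 0.26), and without HK3 or HK4 (0.17 to 0.19), in that order. LHB, the beta subunit of luteinizing hormone, rose by 0.19 ± 0.08 (SE), but not without HC2, HC5, HK1, HK3 or HK4 (0.15 to 0.18), and its second probe differed by -0.34 ± 0.34 (SE). That second probe was far dimmer, at a mean of -4.23 in HC against 2.72 for the first.

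**Figure D3:**
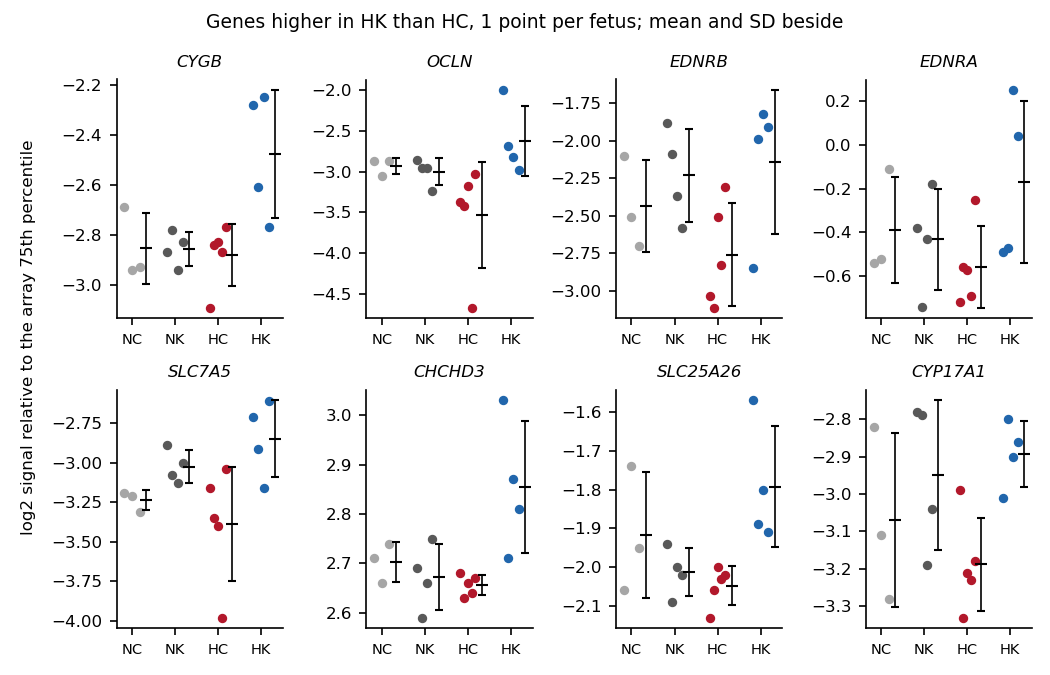
Log2 signal less the 75th percentile of each array (y axis) for 8 genes higher in HK than in HC, with 1 point per fetus in NC, NK, HC and HK and the mean ± SD beside each group. The differences are at most 0.91 log2 units, and HC4 is the low point of OCLN.

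The tested glutamate receptor genes and hypothalamic peptide genes gave no calls. Of 20 tested genes on the list of glutamate and GABA receptors and transporters none was called, and 17 were numerically below HC with a median of -0.17. No GABA receptor or GABA transporter was among the 20, so these were not assessed. GRIN1, the obligatory subunit of the NMDA receptor that ketamine blocks, averaged -1.5 ± 0.32 (SD) in HC and -1.74 ± 0.22 (SD) in HK and differed by -0.24 ± 0.17 (SE). The glutamate transporters SLC1A2 and SLC1A3 differed by -0.28 ± 0.24 and -0.18 ± 0.20 (SE). GRIN2 subunits were not analysed here.
None of the 14 tested hypothalamic peptide genes was called. Oxytocin (OXT), somatostatin (SST) and ADCYAP1, among the brightest of the list, averaged 2.7, 4.66 and 3.55 in HC. They differed by -0.29 ± 0.67, -0.15 ± 0.27 and -0.08 ± 0.28 (SE). Other peptide genes were dim in HC, such as GHRH at -2.14, GNRH1 at -4.08 and PMCH at -4.17. AGRP ranged widely among HC arrays, with an SD of 2.4 in HC against 0.37 in HK.
Markers of other cell types were examined beside the immune genes. Of 6 tested microglia and macrophage genes 1 was lower, CD14, and none was higher, and the summed signal of the list ranged from 1.34 to 3.08 in HC and from 1.23 to 2.04 in HK. CTSS and ITGAM differed by -0.24 ± 0.25 and -0.08 ± 0.30 (SE). Of 21 leukocyte and adhesion genes 1 was lower, FCGR1A, and the T cell genes CD3D and CD3E differed by -0.90 ± 0.51 and -0.18 ± 0.42 (SE). The pituitary genes PRL and CGA were variable, with SDs of 1.4 and 3.29 in HC, and were not called. Of 10 anterior pituitary genes LHB was the only one called, and their summed signal was 2.76 to 3.38 in HC and 3.05 to 3.22 in HK. This sum mostly reflects the bright LHB probe, at 2.72 in HC, whereas the other LHB probe averaged -4.23 there. Of 5 tested markers on the neuron and glia list none was called (summed signal 5.58 to 6.05 in HC and 5.71 to 5.95 in HK). They were AQP4, GFAP, SLC1A2, SLC1A3 and TTR, markers of astrocytes or choroid plexus, so neurons were not assessed. AQP4 averaged 5.65 in HC against 1.19 for GFAP, so the sum mostly reflects AQP4. The leukocyte list summed to 2.96 to 3.75 in HC and 2.85 to 3.35 in HK. The part of these cell types in the lower immune genes was not tested.
The other lists gave few calls. CTSD was the 1 gene higher among 10 genes of protein turnover, and PPARG and CYP17A1 moved in opposite directions among 14 steroid, thyroid and nuclear receptor genes. None of 5 tested antigen presentation genes was called. Over all lists, 259 distinct genes were tested, of which 7 were higher and 24 were lower. Over the 853 gene names, 2.81% were higher and 5.16% were lower. The lists were chosen with earlier results of these data known, so no support is drawn from these counts.

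**Figure D4:**
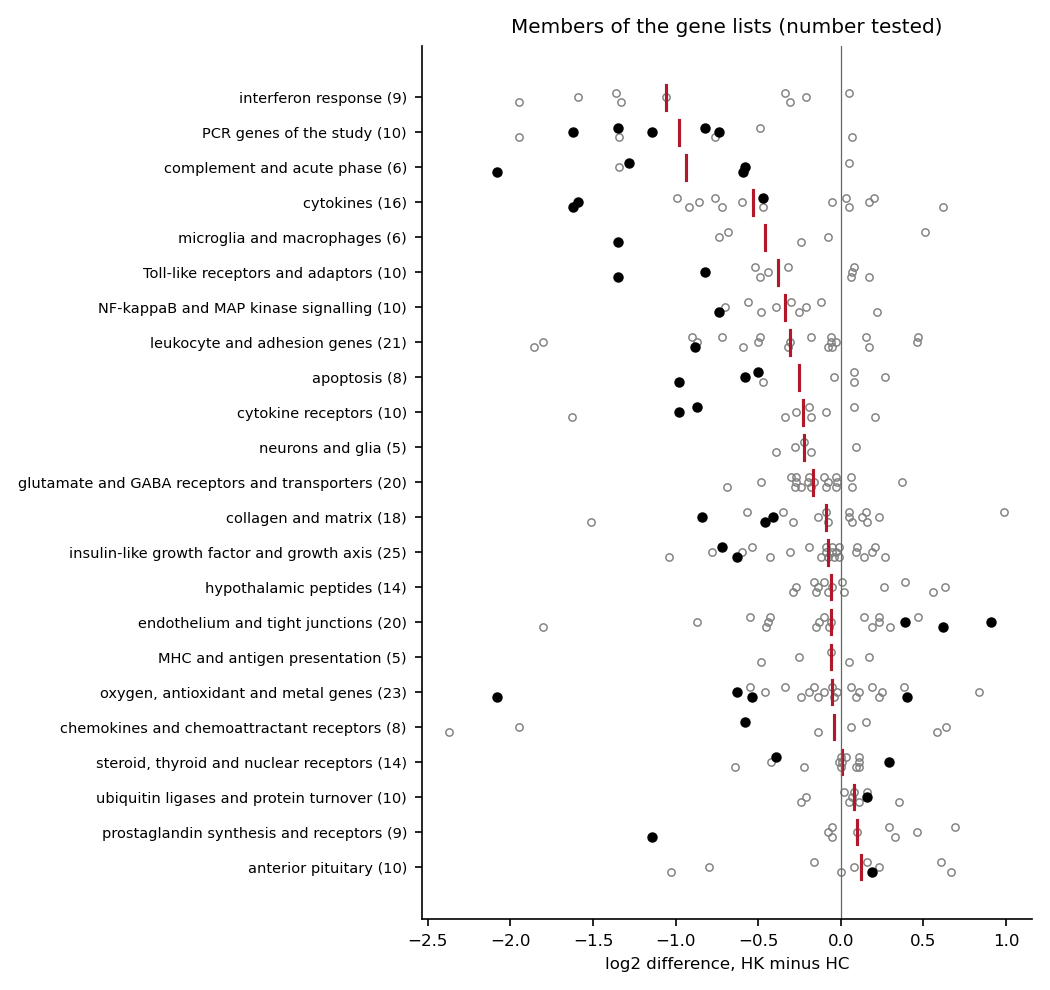
Log2 difference (HK minus HC, x axis) of each tested member of 23 gene lists (y axis, number tested in brackets), with called members filled, other members open and the median of each list as a red bar. Medians run from -1.06 for the interferon response to 0.12 for the anterior pituitary, beside 0.02 over all gene names.

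Whether the ketamine difference depended on hypoxia was tested as the interaction, the HK minus HC difference less the NK minus NC difference. Among the 853 gene names 45 had an interaction p under 0.05 in limma, 5.28% of those tested (466 probes, 3.8%). The smallest adjusted p of the interaction in limma among the described genes was 0.994. NK against NC gave 7 calls (0.821%), fewer than the 5% of chance. The fit shares 1 estimate of the spread among all 4 groups, so this count does not show that ketamine had no effect after normoxia. Of the 46 called genes described here, 25 had an interaction p under 0.05, which followed from their selection for a difference in HK against HC. In IL13RA1 ketamine gave a difference of -0.87 ± 0.21 after hypoxia and 0.14 ± 0.24 after normoxia (SE), an interaction of -1.01 ± 0.32 (limma, adjusted p = 0.994). With normexp this interaction turned to 0.61, and that of IL18 to 0.49. In C5AR1 the values were -0.58 ± 0.15 and 0.13 ± 0.17, and in IL18 -0.47 ± 0.13 and 0.08 ± 0.14 (SE). For OCLN they were 0.91 ± 0.28 and -0.07 ± 0.32, and for CYGB 0.40 ± 0.11 and -0.01 ± 0.13 (SE).
HC exceeded NC at 67 gene names past the threshold (7.85%). Of the 44 lower gene names, 37 had an HC mean above the NC mean, and of the 24 higher names 22 had an HC mean below it, but these comparisons share the HC arrays, so no support is drawn from the counts. For TLR2 the NC and NK means were -4.03 and -3.82, and the HC and HK means were -2.87 and -3.69. For PTGS2 they were -2.34, -1.85, 0.61 and -0.53, so the HK mean lay between those of HC and the normoxic groups. IL18 differed in this respect, with NC and NK means of -2.8 and -2.72 and HC and HK means of -2.69 and -3.16. The HK mean of IL18 was the lowest of the 4 groups. The same held for other called genes, such as IL13RA1 (-4.45 in HK, -4.13 in NC, -3.99 in NK) and C3 (3.02, 3.34 and 3.59). In others, such as CREM, the HK mean lay between those of HC and the normoxic groups (-4.2 in HK, -4.61 in NC, -4.25 in NK). How many called genes showed each pattern was not counted.

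**Figure D5:**
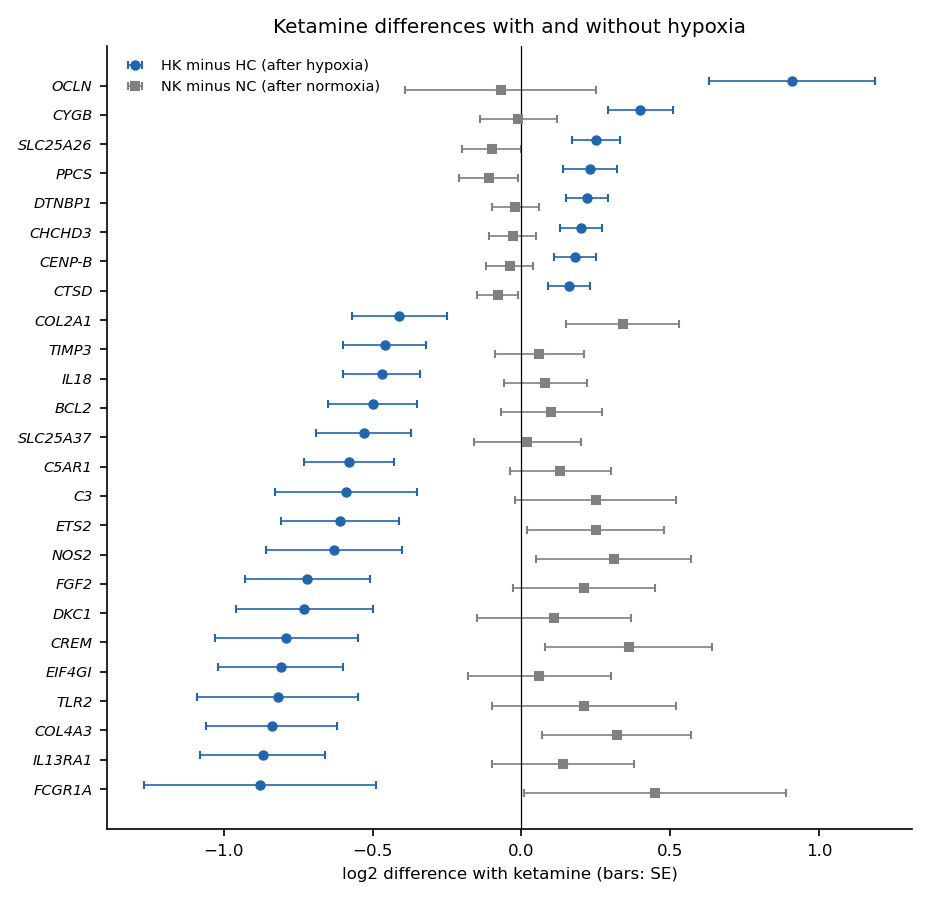
Ketamine differences in log2 units (x axis, bars are SE) after hypoxia (HK minus HC, circles) and after normoxia (NK minus NC, squares) for the 25 described genes with an interaction p under 0.05 (y axis). The normoxia differences lie between -0.11 for PPCS and 0.45 for FCGR1A, nearer to 0 than the hypoxia difference for every gene shown.

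Most called probes had no gene name, 767 of 10937 tested (7.01%), with 3.34% higher and 3.68% lower. Those with the smallest p were A_70_P070001 and A_70_P046886 among the higher and A_70_P058496 and A_70_P021926 among the lower. A_70_P070001 measured 0.14, -0.14, -0.04, 0 and 0 in HC1 to HC5 and 0.41, 0.26, 0.29 and 0.32 in HK1 to HK4. All 4 HK arrays were higher than every HC array, by 0.33 ± 0.08 (SE) in the mean. A_70_P046886 rose by 0.38 ± 0.09 (SE). A_70_P058496, at a dim level of -5.15 ± 0.22 (SD) in HC and -5.92 ± 0.15 (SD) in HK, fell by 0.78 ± 0.13 (SE) and had the smallest p of all probes (limma, adjusted p = 0.409). A_70_P021926 was not well above background on any HK array and was at least 1.44-fold lower.

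Second probes and another background correction bear on how these values are read. Of the 46 called genes described, 18 had a second tested probe, and 17 of these moved in the same direction, 11 of them past the threshold. In 6 the second probe shared over 20 consecutive bases with the first. Of the other 12, 11 had the same direction and 8 were also called. Background correction by normexp, followed by the 75th percentile, left 10 of the 46 called genes past the threshold. They were C5AR1, FGF2, BCL2, DKC1, ETS2, SLC2A3, C3 and NFKBIA, which were lower, and EDNRB and EDNRA, which were higher. Differences that shrank and were no longer called included IL13RA1 (-0.01), CREM (-0.03), TLR2 (-0.08), FCGR1A (-0.08), FAS (-0.16), IL6 (-0.18), TIMP3 (-0.19), TNF (-0.25) and CD14 (-0.90). The direction turned for 8 others, all of them lower in HK above, namely EIF4GI, COL4A3, IL18, SLC25A37, CP, SERPINA1, NOS2 and PPARG.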

How the data were processed

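RNA from the hypothalamus of 16 fetuses was labelled with cyanine 3 and hybridized to 1-colour Agilent sheep arrays, 1 fetus on each array. The deposited scanner files, per the file headers, were written by Feature Extraction 10.1.1.1 and hold spot intensity values on a linear scale, background-subtracted and not normalized between arrays. The authors also deposited a table of log2 values without stating how it was made.

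Of 15744 spots, 536 control spots were left out. The processed intensity was converted to log2, the array's 75th percentile was subtracted, and spots of a probe were averaged without those marked as outliers. A probe counted as well above background where at least 50% of its spots did. A model of the 4 groups was fitted to all 16 arrays in R 4.3.3 with limma 3.58.1 (13.7 total degrees of freedom), two-sided, and was tested on simulated data. Tables were made in Python.

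Of all probes, 89% had no gene name. RefSeq names came from ARS-UI_Ramb_v3.0 and matched 726 of 750 probes, all others were kept from the array annotation, and no coordinates were used. A gene is represented by its brightest tested probe. Named genes are the 15 with the smallest p in each direction, called members of 23 gene lists, the PCR genes and IL6, and of unnamed probes the 2 smallest p in each direction. The members and lists were chosen with earlier results of these data known.

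Alternatives were quantile normalization, normexp (offset 50), the deposited log2 values, no filter, a stricter filter, HC and HK arrays only, slide or replicate number as a block, array weights, leaving out each array, other probes and within-slide differences. The number of arrays limits the precision.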

Additional observations from a re-analysis of the deposited data

Results flagged for a closer look

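Of 102 groups of arrays checked (HC and HK for each of the 51 genes named by rule), 5 held an array far from the others, and chance gives about 1 in 20. OCLN was at -4.67 in HC4, against -3.42 in the nearest HC array. DKC1 was at -0.23 in HC2, against 0.45. TNF was at -3.17 in HK2, against -5.43, and TLR4 was at -4.62 in HK2, against -4.90. EDNRB was at -2.85 in HK1, against -1.99.

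For 25 genes the ketamine difference after hypoxia departed from that after normoxia by the interaction in limma at an unadjusted p under 0.05. The genes were selected for their difference after hypoxia. The interactions below 0 were -1.15 for COL4A3, -1.01 for IL13RA1, -1.16 for CREM, -0.72 for C5AR1, -0.75 for COL2A1, -0.93 for FGF2, -0.86 for ETS2, -0.55 for IL18, -0.87 for EIF4GI, -0.94 for NOS2, -0.61 for BCL2, -0.52 for TIMP3, -1.03 for TLR2, -0.84 for DKC1, -0.84 for C3, -0.54 for SLC25A37 and -1.34 for FCGR1A. Those above 0 were 0.35 for SLC25A26, 0.34 for PPCS, 0.24 for CTSD, 0.41 for CYGB, 0.24 for DTNBP1, 0.98 for OCLN, 0.23 for CENP-B and 0.23 for CHCHD3. Of these, 11 were called whichever of the 16 arrays was left out, whereas CHCHD3 kept its call in 3 of 16, CENP-B in 5, SLC25A37 in 6 and FCGR1A in 7.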

How the results depend on the processing

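All 46 called genes kept their direction under every alternative fit except normexp, which turned 8 (the stricter filter still tested 40 of them), and 22 of them were called whichever HC or HK array was left out. Over all alternative fits of these genes, 746 values kept the call, 160 lost it and 8 reversed. No probe passed adjustment in limma under any alternative, the smallest adjusted p being 0.0571 without HK2. Total calls were 878 with quantile normalization, 893 with the deposited values, 941 without a filter, 994 with slide as a block and 1232 with array weights, against 862. The share of higher probes among calls was 46.2%, but 57% with the deposited values. Normexp gave 208 calls (114 higher and 94 lower), 2 higher and 11 lower gene names, and 2 higher and 6 lower list members, and it moved the median difference of all probes to 0.17, against 0.03. Relative to that median, 35 of the 46 genes kept their direction. Under normexp, EIF4GI was at 0.00, COL4A3 0.18, IL18 0.05, SLC25A37 0.19, CP 0.00, SERPINA1 0.20, NOS2 0.29, PPARG 0.07, TLR4 0.19, A_70_P058496 0.24 and A_70_P021926 0.22, and the interactions turned for COL4A3 (0.80), IL13RA1 (0.61), CREM (0.55), IL18 (0.49), EIF4GI (0.38), NOS2 (1.04), TLR2 (0.44), CTSD (-0.01), SLC25A37 (0.91) and FCGR1A (0.36). The cause was not tested. Other alternatives were chosen after seeing the data: normexp with quantile normalization gave 866 calls, and the 75th percentile without outlier spots gave 848. The interaction was also recomputed by a choice made after seeing the data, with 466 probes past the threshold, 218 under normexp, 771 with array weights and 328 to 666 on leaving out an array. Fitting only HC and HK gave 522 calls (245 higher, 277 lower), 15 higher and 22 lower gene names and 4 higher and 13 lower list members, with fewer arrays to estimate the spread. On leaving out an array, calls ranged from 507 without HK3 to 1242 without HK2 (225 to 553 higher, 282 to 689 lower). Higher gene names then ranged from 12 without HK3 to 37 without HC5, lower from 28 without HK3 to 66 without HC5, higher list members from 4 to 11, and lower from 15 without HC4 to 39 without HC5. With the replicate block, 1142 probes were called (612 of them also in the reported fit), 43 higher and 70 lower gene names, and 12 higher and 44 lower list members. The replicate numbers were not taken to pair the fetuses, since deviations from the group means correlated by 0.35, 0.23, 0.07 and 0.10 for numbers 1 to 4, and HK2 correlated best with HC1. MYD88, which was not called, turned to -0.00 with the deposited values, -0.01 without HC3, -0.06 without HK2, -0.00 within slide 2 and -0.19 on its other probe, and LHB was at -0.34 on its other probe.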

Other observations

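Of the 68 called gene names, 22 met none of the naming rules, and they are described here after their values were seen. Among the 15 lower ones were signalling genes. MYLK, the kinase that activates smooth muscle contraction, fell from 0.85 ± 0.3 to -0.03 ± 0.78 (mean ± SD), by 0.88 ± 0.33 (SE). RGS2, a brake on G protein signalling, fell by 0.40 ± 0.14 (SE), and RCAN1, an inhibitor of calcineurin, fell by 0.29 ± 0.13 (SE). PDXK, MTHFD2 and NAMPT, enzymes of vitamin B6, folate and NAD metabolism, fell by 0.76 ± 0.29, 0.78 ± 0.31 and 0.48 ± 0.19 (SE). Among the 7 higher ones were SLC25A4, the adenine nucleotide carrier of the mitochondrial inner membrane, which rose by 0.21 ± 0.09 (SE), and DBP, a transcription factor of the circadian clock's output, which rose by 0.20 ± 0.08 (SE). None had a limma adjusted p below 0.685.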
